A study of Mus musculus with 18 samples.

Results

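The genes of MHC class II and the gene of their transcriptional activator CIITA were followed across stem-like cells of healthy mouse bone marrow and 5 sorted fractions of NPM-ALK lymphomas. The 9 genes, chosen by symbol, were H2-Aa, H2-Ab1, H2-Eb1, H2-DMa, H2-DMb1, H2-DMb2, H2-Oa, H2-Ob and Ciita, out of 22180 genes measured on the arrays. Each of the 9 was measured by 1 probe set that carries its symbol alone.

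The series holds 18 Affymetrix arrays, 3 for each of 6 groups of sorted cells. In the lymphoma model, Lck-Cre transgene mice were irradiated at a sublethal dose and received bone marrow infected with a retrovirus, so that early T cells made NPM-ALK, a fusion kinase known from a human T cell lymphoma. Lymphomas growing in the thymus were taken from moribund mice, and 3 of them were sorted into fractions called CLP, DN1, DN2, DN3 and DN4 after the stages of early lymphocyte development. The control group was LSK, the compartment of blood stem and progenitor cells that lacks lineage markers and carries SCA1 and cKIT, sorted from bone marrow of healthy wildtype mice 18 months old. No age is given for the lymphoma mice. The groups therefore differ in tissue, in the transgene, in irradiation and transplantation and in the cell type sorted, and these, with age and with the sex signals given below, cannot be told apart in any comparison with LSK. The sort used antibodies to CD4, CD8, CD25, CD44, IL7Rα, cKIT, SCA1 and lineage markers. The Lck promoter that drives Cre acts in early T cells, the recipients keep their own non-transplanted tissues, and neither the mouse strain nor its H2 haplotype is given in the sources used here. The description fields of the samples name other mice, NIPA KO and wild type, with a dose of 4 Gy on 12 of the 18 arrays, so groups were taken from the titles. The labels number the arrays of a group 1 to 3 without saying that they come from separate animals, and p-values here measure only the spread between these samples.

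MHC class II molecules are pairs of an alpha and a beta chain that show peptides from the endosome to CD4 T cells. In the mouse, H2-Aa and H2-Ab1 encode the chains of I-A, and H2-Eb1 encodes the beta chain of I-E. H2-DMa with H2-DMb1 or H2-DMb2 forms H2-M, which exchanges the invariant chain peptide for antigenic peptide, and H2-Oa with H2-Ob forms H2-O, which restrains H2-M. CIITA binds no DNA itself but is recruited to the X and Y boxes of class II promoters by the RFX complex, CREB and NF-Y. Class II is made mainly by dendritic cells, B cells, macrophages and thymic epithelium, blood progenitors can carry it, and mouse T cells as a rule do not.

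Known control sequences of class II genes lie just upstream of their starts, and some are shown because the members below do not all move the same way although 4 of them share the same pair of motifs. Promoter sequence was taken from RefSeq on build GRCm38.p6 and was found for 7 of the 9 members; H2-Ab1 and Ciita were not matched. A core of the X box, GCAAC, and a Y box, TGATTGG, were searched on both strands in the 250 bases before each start. These letters were chosen with the promoters in view. GCAAC was found in 29.88% of 32851 promoters and TGATTGG in 7.23%, whereas GCAAC followed by TGATTGG on the same strand within 40 bases was found in 102 promoters, or 0.3105%. The ordered pair was present in H2-Aa, H2-Eb1, H2-Ob and H2-Oa, which is 4 of the 7 members with a promoter. The 150 bases before the start are printed 5′ to 3′ on the strand of the gene, with both motifs in capitals, for these 4 members and H2-DMb1. The window of H2-DMb1 holds TGATTGG but not the exact letters GCAAC. Near matches were not searched, so this does not show that its promoter lacks an X box. The windows are chr17:34287824-34287973 on the minus strand for H2-Aa and, on the plus strand, chr17:34305717-34305866 for H2-Eb1, chr17:34238755-34238904 for H2-Ob, chr17:34092229-34092378 for H2-Oa and chr17:34153041-34153190 for H2-DMb1.
H2-Aa: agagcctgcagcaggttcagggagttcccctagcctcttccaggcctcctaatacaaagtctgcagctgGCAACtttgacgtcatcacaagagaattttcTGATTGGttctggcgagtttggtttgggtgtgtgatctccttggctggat
H2-Eb1: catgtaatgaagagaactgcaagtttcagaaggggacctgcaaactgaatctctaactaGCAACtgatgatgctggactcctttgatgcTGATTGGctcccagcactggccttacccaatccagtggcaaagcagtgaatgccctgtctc
H2-Ob: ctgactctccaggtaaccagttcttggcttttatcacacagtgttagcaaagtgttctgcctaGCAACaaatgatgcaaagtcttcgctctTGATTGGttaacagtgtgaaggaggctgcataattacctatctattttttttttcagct
H2-Oa: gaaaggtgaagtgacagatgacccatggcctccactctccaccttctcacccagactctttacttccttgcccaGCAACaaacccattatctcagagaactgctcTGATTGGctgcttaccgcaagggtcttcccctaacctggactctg
H2-DMb1: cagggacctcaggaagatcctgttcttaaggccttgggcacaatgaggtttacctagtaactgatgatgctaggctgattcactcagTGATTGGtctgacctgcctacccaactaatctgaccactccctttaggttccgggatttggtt
Between the motifs lie 26 bases in H2-Aa, 25 in H2-Eb1, 23 in H2-Ob and 26 in H2-Oa. A match describes these letters and does not show that a factor binds there. The window of H2-Oa lies inside the span of BC051537, a noncoding gene that contains the whole of H2-Oa.

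All values are RMA signals on the log2 scale, so a difference of 1 is a factor of 2 in signal. Background was gauged from 1108 probe sets of olfactory receptors, whose 95th percentile lay between 5.36 and 5.71 on the 18 arrays, and a value at or below that of its own array is called background here. Probe sets differ in brightness, so levels are compared between groups within a gene and not between genes. Across the arrays, all 8 measured T cell markers were higher in the lymphoma and all 7 measured stem and progenitor markers were lower, and Il2ra, which encodes CD25, was highest in DN2 and DN3. CLP arrays were the least alike, with correlations of 0.968 to 0.975 between arrays of that group. Among the LSK arrays, Xist was at 3.55, 10.74 and 10.0 and the Y-linked Eif2s3y at 8.42, 7.43 and 4.69, while all 15 lymphoma arrays had Xist between 3.81 and 5.03 and Eif2s3y between 8.62 and 9.44, so LSK array 3 has the pattern of a female, LSK array 1 that of a male like the lymphomas, and LSK array 2 both signals. Cells were sorted and measured in bulk, so fewer cells that express a gene and less RNA per cell cannot be told apart.

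Most class II genes were lower in the lymphoma than in LSK, and H2-Oa was higher. With the 5 fraction arrays of each replicate number averaged, limma's test called 7 of the 9 members lower and 1 higher at an adjusted p under 0.05. The 7 include H2-DMb1, whose values were at background in LSK and in the lymphoma. Over all genes this test called 29% in either direction, 15.8% lower and 13.1% higher. The median difference of the 9 members was -0.81, beside 0.05 over all genes. Ciita alone among the 9 was not called. Each call held with the replicate number as a block and when any 1 fraction was left out of the lymphoma mean, and the only call lost when an LSK array or a lymphoma array number was left out was that of H2-Ob.

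The I-A beta chain gene H2-Ab1 had the widest range of the members. It stood at 10.77, 10.16 and 10.56 in LSK, at 8.68, 8.46 and 8.63 in DN1 and at 7.99, 8.07 and 8.21 in DN2. It stood at 5.87, 7.07 and 6.64 in CLP, at 6.30, 6.30 and 6.45 in DN3 and at 5.71, 6.58 and 6.28 in DN4. The LSK arrays lay above all 15 lymphoma arrays, and the DN1 and DN2 arrays lay above every CLP, DN3 and DN4 array. Averaged over fractions the fall was 10.2-fold (log2 difference -3.35, SE 0.167, limma adjusted p = 4.08e-07, n = 3 against 3). By fraction the difference from LSK was -1.91 in DN1, -2.41 in DN2, -3.97 in CLP, -4.15 in DN3 and -4.31 in DN4, each called by limma.

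The I-A alpha chain gene H2-Aa was also highest in LSK, then in DN1 and DN2, with a narrower range. Its signals were 8.49, 7.88 and 8.37 in LSK, 6.21, 6.14 and 6.67 in DN1 and 5.29, 5.68 and 5.50 in DN2. In CLP they were 5.12, 4.77 and 5.08, in DN3 5.00, 5.29 and 5.14, and in DN4 5.03, 4.93 and 4.98. All LSK arrays were above all lymphoma arrays, all DN1 arrays were above background, and CLP, DN3 and DN4 arrays were all in the background range, where the array cannot resolve a further fall. The lymphoma mean was 7.24-fold below LSK (log2 difference -2.86, SE 0.154, limma adjusted p = 6.88e-07), and the fractions ranged from -1.91 in DN1 to -3.26 in CLP and DN4.

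H2-Eb1, the I-E beta chain gene, was called lower than LSK in every fraction except DN1. It measured 7.24, 6.51 and 6.82 in LSK and 6.64, 6.88 and 6.57 in DN1, so these groups overlapped. It measured 6.09, 5.94 and 5.96 in CLP, 6.14, 5.99 and 5.84 in DN2, 5.70, 5.82 and 5.95 in DN3 and 5.71, 5.81 and 5.72 in DN4, all below the lowest LSK array. The difference between DN1 and LSK was -0.16 with a 95% interval from -0.58 to 0.26 (limma adjusted p = 0.629), and without LSK array 1 it was 0.028 (limma adjusted p = 0.953). The differences of the other fractions from LSK were -0.86 in CLP, -0.87 in DN2, -1.04 in DN3 and -1.12 in DN4, all called. The CLP call was lost without LSK array 1 (limma adjusted p = 0.0603) or LSK array 3 (limma adjusted p = 0.0547). The partner chain gene H2-Ea stayed at background on all 18 arrays (3.82 to 4.56), so I-E cannot be followed through both its chains.

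**Figure D1:**
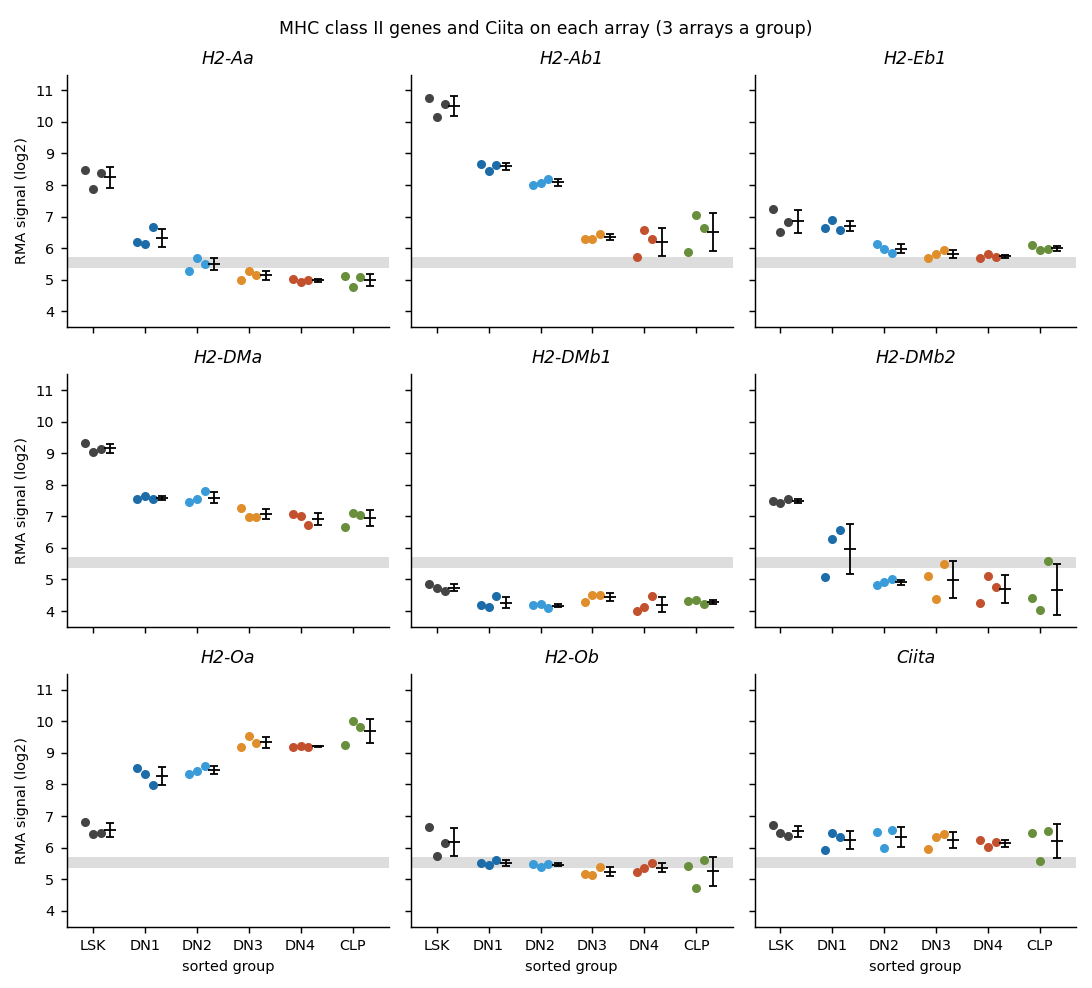
Log2 RMA signal of each of the 9 genes on each array (points) by sorted group, with 3 arrays a group, a black bar at the group mean with its SD and the range of the olfactory receptor background (5.36 to 5.71) shaded. H2-Ab1 falls from 10.49 on average in LSK to 8.59 in DN1 and 6.19 in DN4, H2-Oa rises from 6.56 in LSK to 9.69 in CLP, and Ciita stays between 5.58 and 6.70 on all arrays.

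Of the genes of the peptide exchange factor H2-M, H2-DMa and H2-DMb2 also fell, and H2-DMb1 was at background throughout. H2-DMa, the alpha chain, measured 9.31, 9.02 and 9.14 in LSK, 7.55, 7.64 and 7.55 in DN1, 7.45, 7.54 and 7.80 in DN2 and between 6.65 and 7.27 on the 9 arrays of CLP, DN3 and DN4. No lymphoma array reached the LSK arrays, and all 15 were above background. Its lymphoma mean was 3.82-fold lower (log2 difference -1.93, SE 0.104, limma adjusted p = 6.89e-07), with -1.56 in DN2 and -2.23 in DN4 as the ends of the range.

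H2-DMb2, a beta chain gene of H2-M, measured 7.49, 7.42 and 7.56 in LSK. In DN1 it measured 5.07, 6.30 and 6.55, and in CLP 4.43, 4.02 and 5.59. It lay between 4.25 and 5.50 in DN2, DN3 and DN4. Only 2 DN1 arrays and 1 CLP array were above background, and the LSK arrays lay above every lymphoma array. The lymphoma mean was lower by 5.40-fold (log2 difference -2.43, SE 0.171, limma adjusted p = 4.37e-06), and DN1, at -1.52, had the smallest difference of the fractions.

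The second beta chain gene, H2-DMb1, is a near-identical neighbour of H2-DMb2, so probe sets of the pair may detect each other's RNA. It was below background on all 18 arrays, at 4.64 to 4.86 in LSK and 4.01 to 4.52 in the lymphoma. Its called difference of -0.47 (SE 0.101, limma adjusted p = 0.0067) therefore lies between values that the arrays do not separate from background. It was not called in DN3 (limma adjusted p = 0.129) or, by this test, in CLP (0.0611), where quantile normalization (0.0472), a trended and robust prior (0.0411) and 1 model of all 18 arrays (0.0178) called it. Its DN1 call was lost without any 1 of the LSK arrays or DN1 array 1 or 2 (limma adjusted p 0.0614 to 0.157) and with the replicate number as a block (0.0605), and its DN4 call without LSK array 1 or DN4 array 1 or 2 (0.0631 to 0.0698).

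H2-Oa was the only member above LSK. Its signals were 6.80, 6.42 and 6.45 in LSK, 8.51, 8.34 and 7.97 in DN1 and 8.32, 8.44 and 8.58 in DN2. They were 9.25, 10.00 and 9.81 in CLP, 9.19, 9.53 and 9.30 in DN3 and 9.20, 9.23 and 9.19 in DN4. The lowest lymphoma array was above the highest LSK array, and the DN1 and DN2 arrays lay below those of the other 3 fractions. The lymphoma mean was higher by 5.41-fold (log2 difference 2.44, SE 0.125, limma adjusted p = 4.94e-07), from 1.72 in DN1 and 1.89 in DN2 to 2.65 in DN4, 2.79 in DN3 and 3.13 in CLP.

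A further probe set carries the symbols of both H2-Oa and BC051537 and was left out of the tests for that reason. It read 5.10 to 5.51 in LSK and 5.62 or more on all lymphoma arrays, close to background and also without overlap, with a smaller difference than the probe set named for H2-Oa alone. How much of the H2-Oa signal comes from the overlapping noncoding gene was not tested.

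H2-Ob, the partner of H2-Oa in H2-O, did not rise with it. It measured 6.64, 5.74 and 6.15 in LSK and 4.72 to 5.61 in the lymphoma, where only 3 of 15 arrays were above background. The lymphoma mean was lower (log2 difference -0.81, SE 0.201, limma adjusted p = 0.0134), and without the lymphoma arrays numbered 2 the adjusted p was 0.0545. Against single fractions it was called in DN1, DN2, DN3 and DN4 but not in CLP (-0.93, limma adjusted p = 0.0561). The CLP difference was called with the replicate number as a block (limma adjusted p = 0.015), in 1 model of all 18 arrays (0.0019), with a trended and robust prior (0.0446), without LSK array 2 (0.0479) and without CLP array 3 (0.0439). The DN1 call (-0.66, limma adjusted p = 0.0455) was lost without LSK array 1 or 3 or any 1 DN1 array (0.0618 to 0.166), and the DN2 call without DN2 array 2 (0.0631). The 2 chains of H2-O thus differed from LSK in opposite directions, and the one that fell sat near background.

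Ciita was not called in any comparison. It measured 6.70, 6.46 and 6.37 in LSK, 6.48, 5.58 and 6.53 in CLP, 5.91, 6.46 and 6.33 in DN1, 6.50, 5.98 and 6.55 in DN2, 5.94, 6.34 and 6.42 in DN3 and 6.23, 6.01 and 6.16 in DN4. Only the DN4 arrays all lay below the lowest LSK array, and 14 of 15 lymphoma arrays were above background. The difference of the lymphoma mean from LSK was -0.28 with a 95% interval from -0.57 to -0.0024 (unadjusted p = 0.0484, limma adjusted p = 0.124). The largest difference of a fraction was -0.38 in DN4 (limma adjusted p = 0.0585), and in DN2 it was -0.17 (limma adjusted p = 0.521). DN4 was called lower with quantile normalization (limma adjusted p = 0.0411), with the filter on low values (0.0393) and without LSK array 3 (0.0414). In LSK the mean of Ciita was 6.51, where the background lay at 5.36 to 5.71. The LSK means of H2-DMb2, H2-Aa, H2-DMa and H2-Ab1 ran from 7.49 to 10.49. The arrays therefore leave less room for a fall of Ciita, and the size of its difference is not set against theirs.

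**Figure D2:**
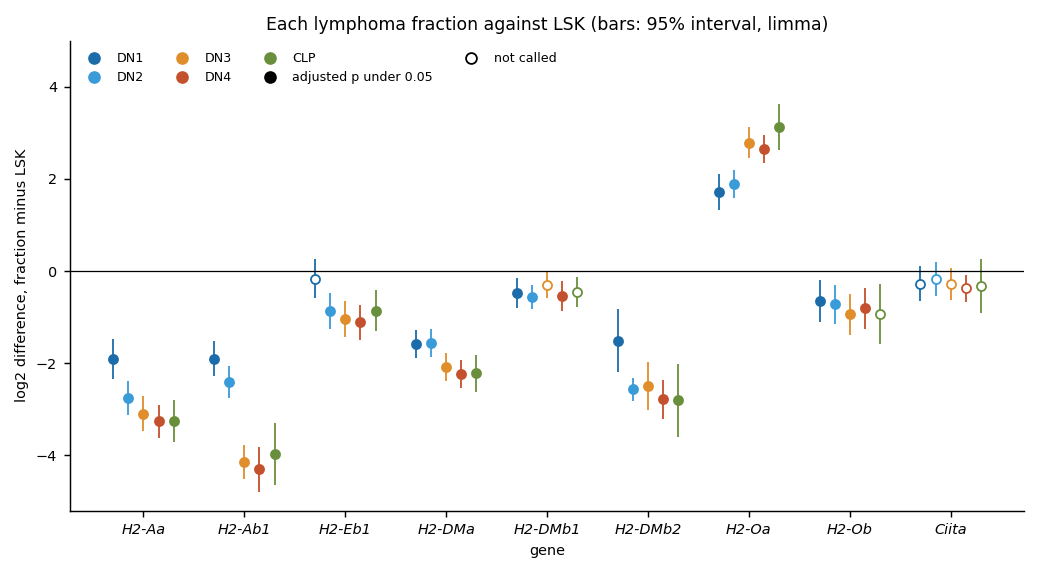
Difference of each lymphoma fraction from LSK on the log2 scale for the 9 genes, 3 arrays against 3, with 95% intervals from limma; filled points passed an adjusted p under 0.05 and open points did not. H2-Ab1 runs from -1.91 in DN1 to -4.31 in DN4, H2-Oa from 1.72 in DN1 to 3.13 in CLP, and all 5 Ciita points are open.

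Taken fraction by fraction, limma called 1 member higher in every fraction, H2-Oa, and 5 members lower in CLP, 6 each in DN1 and DN3, and 7 each in DN2 and DN4. The share of all genes called lower was 14.9% for DN4, 14% for DN2, 13.1% for DN3, 12.3% for DN1 and 11.2% for CLP. The share called higher was 11.8% for DN4, 11.4% each for DN2 and DN3, 7.45% for DN1 and 6.54% for CLP. H2-Aa, H2-Ab1, H2-DMa and H2-DMb2 were lower in each of the 5 fractions, as were 7.81% of all genes, and H2-Oa was higher in each, as were 3.45%. The 5 comparisons use the same 3 LSK arrays and are not independent of each other.

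The next question was whether the lymphoma fractions differ from one another, which needs no LSK array. In 1 model of the 15 lymphoma arrays, limma's F test called 5 of the 9 members, H2-Ab1, H2-Aa, H2-Oa, H2-Eb1 and H2-DMa, where it called 7.88% of all genes. The means of H2-Ab1 spanned 2.40 between DN4 and DN1 (limma adjusted p = 2.58e-06), those of H2-Oa 1.42 between DN1 and CLP (0.000104) and those of H2-Aa 1.36 between DN4 and DN1 (4.67e-05). H2-Eb1 spanned 0.95 between DN4 and DN1 (limma adjusted p = 0.000487) and H2-DMa 0.67 between DN4 and DN2 (0.00791). H2-DMb2 was not called (span 1.29, limma adjusted p = 0.193), though it was without CLP array 3 (0.0335) or DN1 array 1 (0.0421). Its differences of DN1 from CLP (limma adjusted p = 0.0576) and from DN4 (0.0813) were called with the replicate number as a block (0.0233 and 0.0323). H2-DMb1 (limma adjusted p = 0.756), H2-Ob (0.791) and Ciita (span 0.21, 0.979) were not called.

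DN1 and DN2 stood together for some members and apart for others. H2-Ab1 was higher in DN1 than in DN3 by 2.24 (SE 0.242, limma adjusted p = 7.07e-06) and higher in DN2 than in DN3 by 1.74 (limma adjusted p = 0.000254). Between DN1 and DN2, H2-Ab1 differed by 0.50 with a 95% interval from -0.01 to 1.01 (limma adjusted p = 0.662), although the 3 arrays of each did not overlap. In the order DN1, DN2, CLP, DN3, DN4 of its means, the neighbours DN2 and CLP differed beyond their spread (1.56, limma adjusted p = 0.00104), while CLP and DN3, at 0.18, and DN3 and DN4, at 0.16, were not called.

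The other I-A chain and I-E separated DN1 from all other fractions. H2-Aa was higher in DN1 than in DN2 by 0.85 (limma adjusted p = 0.00904), than in DN3 by 1.19 (7.34e-05), than in CLP by 1.35 (2.52e-05) and than in DN4 by 1.36 (1.76e-05). The first of these was lost without DN1 array 3 (limma adjusted p = 0.0502) or DN2 array 1 (0.0623). H2-Eb1 was higher in DN1 than in DN2 by 0.71 (limma adjusted p = 0.00785, and 0.0636 without DN2 array 3), than in CLP by 0.70, than in DN3 by 0.87 and than in DN4 by 0.95. Among CLP, DN2, DN3 and DN4 no pair was called for H2-Aa or H2-Eb1.

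H2-DMa stood at like levels in DN1 and DN2, which differed by -0.01 with a 95% interval from -0.34 to 0.32. It was higher than in DN4 in both, by 0.65 in DN1 (limma adjusted p = 0.0145) and by 0.67 in DN2 (0.0236), and higher than in CLP by 0.64 (0.015) and 0.66 (0.0286). The 4 calls were not stable to single arrays. Both DN1 calls were lost without DN1 array 2 (limma adjusted p = 0.0559 against CLP and 0.059 against DN4), and that against DN4 also without DN4 array 3 (0.099). Both DN2 calls were lost without DN2 array 2 or 3 (limma adjusted p 0.068 to 0.165), that against CLP also without CLP array 1 (0.0645), and that against DN4 also without DN4 array 2 (0.0607) or 3 (0.153). Against DN3 neither was called (limma adjusted p = 0.0634 for DN1 and 0.119 for DN2). The difference between DN1 and DN3 was called with the filter on low values (0.0459) and without CLP array 1 (0.0298).

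H2-Oa ran the other way. It was lower in DN1 than in CLP by 1.42 (limma adjusted p = 6.46e-05), than in DN3 by 1.07 (0.000849) and than in DN4 by 0.93 (0.00313), and DN2 was lower than CLP by 1.24 (0.000618), than DN3 by 0.89 (0.00909) and than DN4 by 0.76 (0.0295). The difference between DN2 and DN3 was lost without DN2 array 1 (0.06) or DN3 array 2 (0.0565), and that between DN2 and DN4 without any 1 of their 6 arrays (0.0582 to 0.151). In the order CLP, DN3, DN4, DN2, DN1 of its means, the only neighbours that differed beyond their spread were DN4 and DN2.

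Over the 10 pairs of fractions, 24 of 90 tests of a member were called. They were 5 for CLP and DN1 (7.78% of all genes called), 3 for CLP and DN2 (2.87%), 2 for DN1 and DN2 (1.35%), 4 for DN1 and DN3 (6.7%), 5 for DN1 and DN4 (5.61%), 2 for DN2 and DN3 (2.45%) and 3 for DN2 and DN4 (2.65%). None was called between CLP and DN3, CLP and DN4, or DN3 and DN4, where 1.1%, 1.07% and 0.00451% of all genes were. Among these 27 tests without a call, the unadjusted p was under 0.05 for H2-Oa alone, between CLP and DN4 (0.0166). That difference was called without CLP array 1 (limma adjusted p = 0.0222).

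Across arrays, H2-Ab1 and several other members varied together, and some did not. H2-Ab1 correlated with H2-Aa at Pearson's r of 0.930 over the 18 arrays and 0.816 over the 15 lymphoma arrays, with H2-DMa at 0.943 and 0.882 and with H2-Oa at -0.918 and -0.777. It correlated with H2-Eb1 at 0.857 and 0.744, with H2-DMb2 at 0.841 and 0.54 and with H2-Ob at 0.746 and 0.351. With H2-DMb1, which is at background, it correlated at 0.549 and -0.181, and with Ciita at 0.318 and 0.0178. These are descriptions over arrays that share groups and are not independent. Among 3317 other genes whose group means span at least 1 log2 unit, the patterns most like that of H2-Ab1 were those of Calcrl (r = 0.978), Klf6 (0.974), Fads3 (0.969), Clcn5 (0.968) and Itprid2 (0.967). Most like H2-Oa were Bzw2 (0.978), Ifi204 (0.972), C030013G03Rik (0.967), 1500009L16Rik (0.966) and Cym (0.965). For Ciita the highest were Zfp455 (0.694), Abhd14b (0.649), Pomt2 (0.648), Mir18 (0.643) and 4930402H24Rik (0.643). The group means of Ciita ran only from 6.14 to 6.51, less than the span asked of these genes. Its lower correlations are therefore not set against those for H2-Ab1 and H2-Oa. Members were left out of this search. Among members, Ciita correlated most with H2-Ob (0.650 over 18 arrays, 0.655 over 15), which was near background in the lymphoma. H2-DMb2 followed (0.501 and 0.374), and H2-Oa was at -0.430 and -0.259.

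**Figure D3:**
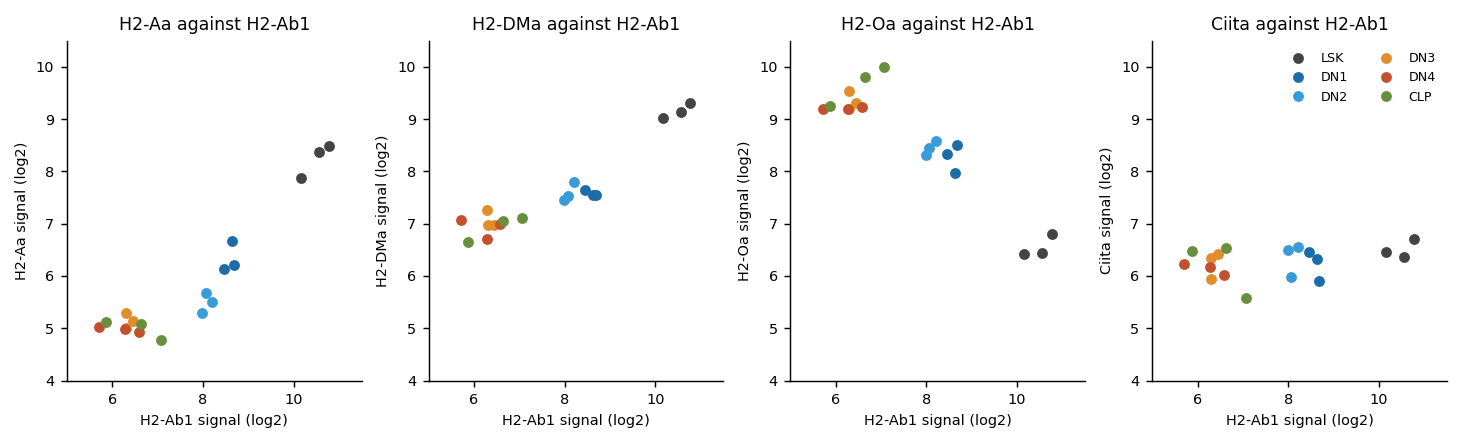
Log2 signal of H2-Aa, H2-DMa, H2-Oa and Ciita (vertical axes) against that of H2-Ab1 (horizontal axes), 1 point for each of the 18 arrays, coloured by group. H2-Aa and H2-DMa rise with H2-Ab1 (r = 0.930 and 0.943), H2-Oa falls (-0.918), and Ciita has no clear slope (0.318).

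The members lie in a stretch of chromosome 17, except Ciita on chromosome 16. Between H2-Oa and H2-Ea the reference lists 17 genes, of which 15 were measured and 7 are not members; this window was chosen after values were seen. Of the 7, 3 were higher in the lymphoma than in LSK and none was lower in limma's test. Over all genes 13.1% were called higher and 15.8% lower, so with 7 genes the lack of a lower one says little. The 3 were Psmb8 (0.80, limma adjusted p = 0.000288) and Psmb9 (0.71, 0.0026), subunits of the immunoproteasome, and H2-Eb2, a further beta chain gene (1.41, 5.21e-05). The peptide transporter genes Tap1 (-0.07) and Tap2 (-0.17), the bromodomain gene Brd2 (-0.04) and H2-Ea (-0.11) were not called. Genes that fell and genes that rose were thus neighbours, and H2-Eb1 (-0.81) lies beside H2-Eb2.

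**Figure D4:**
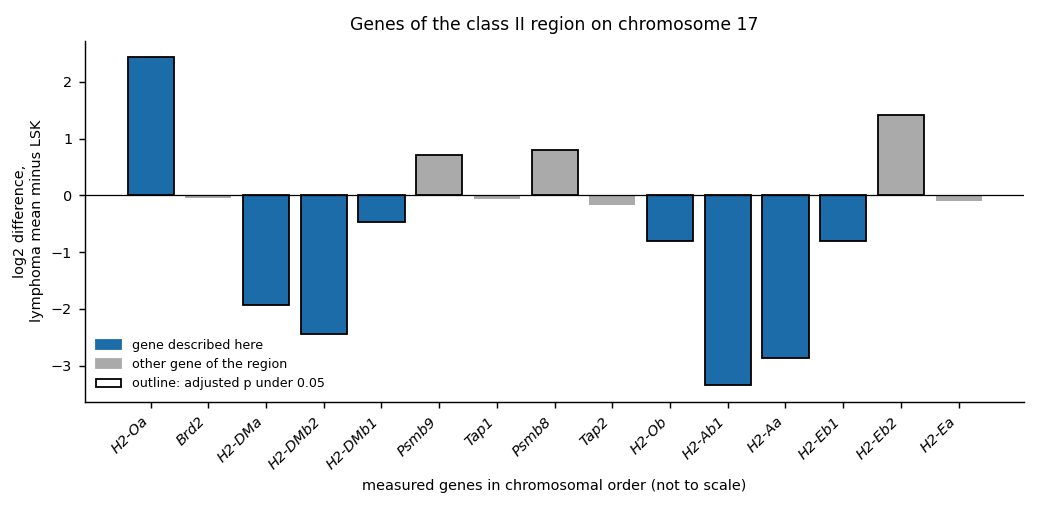
Difference of the lymphoma mean from LSK on the log2 scale (3 values against 3) for the 15 measured genes between H2-Oa and H2-Ea, in chromosomal order and not to scale; outlined bars passed an adjusted p under 0.05. H2-Oa at the left edge (2.44) and H2-Eb2 near the right edge (1.41) rise, and H2-Ab1 (-3.35), H2-Aa (-2.86), H2-DMb2 (-2.43) and H2-DMa (-1.93) fall.

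Class II molecules are prepared for peptide by a set of other genes. Of 10 measured genes of antigen loading, 4 fell and 1 rose against LSK, with a median difference of -0.02, where 15.8% of all genes fell and 13.1% rose. The cathepsin genes Ctsh (-2.42, limma adjusted p = 2.92e-06), Ctss (-1.60, 0.00162), whose protease degrades the invariant chain, and Ctsl (-0.62, 0.00171) fell, as did Marchf8 (-1.64, 0.000233), a ubiquitin ligase of membrane proteins. Ifi30, the thiol reductase GILT, rose (0.47, 0.0108). Ctss measured 9.17, 7.92 and 8.91 in LSK, 7.83, 7.52 and 7.79 in DN1 and 6.25 to 7.27 in the other fractions, so DN1 was the highest lymphoma fraction here too. Cd74, the invariant chain gene, has no probe set of its own symbol alone and was not analysed here.

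Of 19 measured genes that bind class II promoters or act on Ciita, 8 fell and 2 rose, with a median of -0.18. Over all genes 15.8% fell and 13.1% rose. The myeloid and lymphoid regulators Irf8 (-2.26, limma adjusted p = 7.75e-07) and Spi1 (-1.43, 2.57e-06) fell, as did Nfya (-1.20, 0.000367), the NF-Y subunit, Irf2 (-1.08, 0.000227) and Rfxank (-0.49, 0.00307), a subunit of RFX. The other RFX genes, Rfx5 (-0.21, limma adjusted p = 0.326) and Rfxap (-0.06, 0.765), and the NF-Y subunits Nfyb (0.36, 0.0881) and Nfyc (0.19, 0.322) were not called. Irf1, an interferon-induced activator of Ciita, rose (0.63, limma adjusted p = 0.00241), as did Jak1 (0.30, 0.0483).

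The class I pathway, which shares its regulators in part, split evenly. Of 15 measured genes 5 fell and 5 rose, with a median of -0.17, where 15.8% of all genes fell and 13.1% rose. H2-K1, a class I heavy chain gene, fell (-1.27, limma adjusted p = 7.81e-06), as did H2-T23 (-0.89), Calr (-0.60), B2m (-0.49), the common light chain gene, and Tapbp (-0.41). The immunoproteasome genes Psmb10 (0.99), Psmb8 (0.80) and Psmb9 (0.71) rose, with Tapbpl (0.85) and the peptide-trimming gene Erap1 (0.38). Nlrc5, which activates class I genes as CIITA does class II, was not called (-0.19, limma adjusted p = 0.375). Its LSK arrays, at 7.26 to 7.75, lay below the mean of DN1 (8.32) and above that of DN4 (6.65). The lymphoma mean therefore averages fractions on both sides of LSK.

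**Figure D5:**
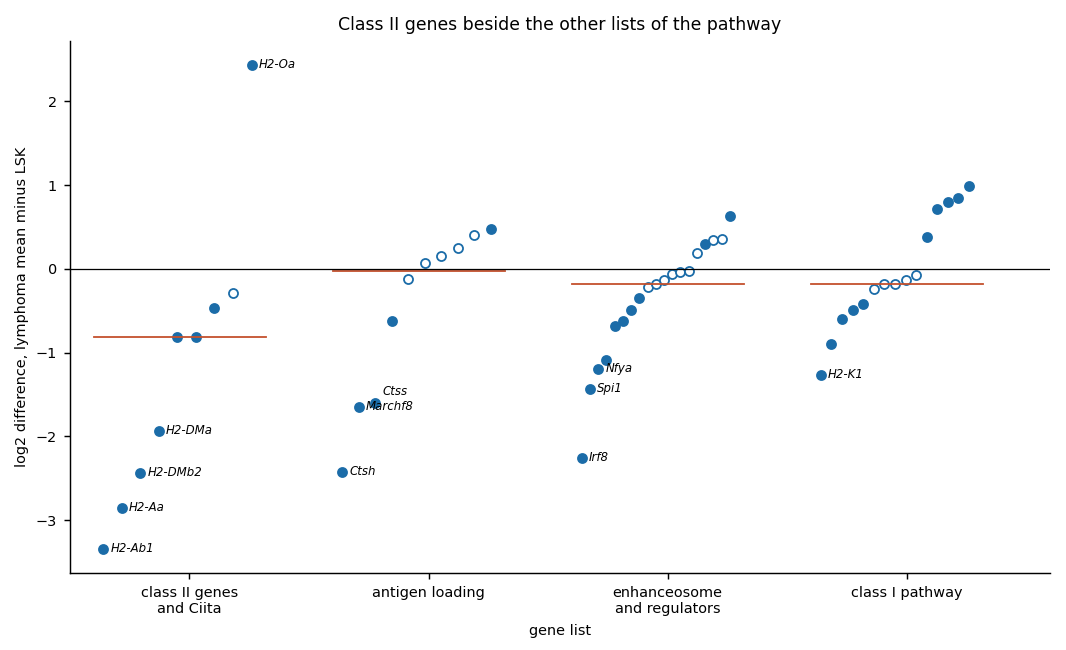
Difference of the lymphoma mean from LSK on the log2 scale (3 values against 3) for the 9 genes described here and for 10 measured antigen loading genes, 19 regulators and 15 class I pathway genes; each point is 1 gene, filled where the adjusted p was under 0.05, and the line is the median of the list. The medians are -0.81, -0.02, -0.18 and -0.17, beside 0.05 over all genes.

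Markers of other cells that make class II were looked at beside these results. Against LSK, 7 of 11 measured dendritic cell markers fell and 1 rose, 6 of 12 macrophage and monocyte markers fell and 2 rose, 3 of 9 B cell markers fell, and 1 of 7 thymic epithelial markers fell, where 15.8% of all genes fell and 13.1% rose. Flt3 (-4.13), Csf1r (-2.64) and Itgax (-1.68) were among those that fell, and Flt3 and Itgax were at background on all 15 lymphoma arrays. In LSK, 1 of 11 dendritic, 3 of 12 macrophage, 3 of 9 B cell and 5 of 7 thymic epithelial markers were at background on all arrays. The thymic epithelial marker Epcam was at background on every array, at 4.76 to 5.06 in LSK and 4.00 to 4.42 in the lymphoma. A lower value between such levels says little. Other markers of these lists, among them Ccr7, Cd68, C1qa and C1qb, had a mean above that of LSK in every fraction. The mean log2 signal of the dendritic list was 7.05 to 7.18 in LSK, 6.24 to 6.37 in DN1 and 5.94 to 6.32 in the other fractions. The macrophage list was at 6.61 to 6.69 in LSK, 6.07 to 6.14 in DN1 and 5.66 to 6.03 elsewhere, and the B cell list at 5.17 to 5.68, 4.92 to 5.15 and 4.80 to 5.01. The part of such cells in the LSK signal was not tested.

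In DN1, H2-Ab1, H2-Aa and H2-Eb1 were highest among the lymphoma fractions. The dendritic markers Flt3 (5.08 to 5.35) and Itgax (4.68 to 5.12) were at background on all 3 DN1 arrays. So was Ms4a1 (3.68 to 4.19), the gene of the B cell antigen CD20. Ms4a1 was also at background in LSK (3.56 to 4.05), so its lack of signal in DN1 says little. Among B cell markers, Cd79a, Ms4a1, Pax5, Ebf1 and Cd22 had their highest fraction mean in DN1. Cd79b, Blnk, Fcer2a and Cr2 had theirs in other fractions. In the full lists 5 of 11 dendritic, 6 of 12 macrophage and 4 of 9 B cell markers were at background on all DN1 arrays, and the others had signal on at least 1. Of the marker lists, 1 of 11 dendritic genes (Ccr7), 1 of 12 macrophage genes (Ly6c2) and 0 of 9 B cell genes were called higher in DN1 than in DN3, and none lower, where 6.7% of all genes were called in either direction. By the F test 2, 1 and 0 of them differed among the fractions, and the other dendritic gene, Tcf4, was lowest in DN1 (mean 8.31) and highest in DN4 (9.02). Jchain, the joining chain gene of secreted antibody, measured 8.64, 8.77 and 8.40 in DN1, was at background in all other fractions and measured 9.06, 7.87 and 6.52 in LSK. Ighm, the IgM heavy chain gene, was higher in DN1 than in DN3 by 1.56 (limma adjusted p = 0.000106), Ccr7 by 1.13 (0.0117) and Ly6c2 by 3.55 (4.9e-07). Jchain and Ighm were added after values were seen, in a list of 5 antibody-secreting cell genes of which Mzb1, Sdc1 and Tnfrsf17 did not differ among the fractions by the F test. Whether other cells in the DN1 sort contribute to its class II signal was not tested.

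By the F test 4 of the 19 measured regulators, 3 of the 10 antigen loading genes and 2 of the 15 class I genes differed among the fractions, where 7.88% of all genes did. Nlrc5 measured 8.24, 8.57 and 8.16 in DN1, 7.87, 8.12 and 7.79 in DN2 and 6.47 to 7.36 in CLP, DN3 and DN4, and was higher in DN1 than in DN3 by 1.38 (limma adjusted p = 0.000158). Of the 19 regulators, 4 were called higher in DN1 than in DN3 and none lower, with a median difference of -0.04 over the list. For this pair 6.7% of all genes were called in either direction. Socs1, an inhibitor of interferon signalling, was higher by 1.39 (limma adjusted p = 2.64e-06), Jak2 by 0.61 (0.0156) and Ifngr1 by 0.53 (0.0237), whereas Ifngr2 (-0.10), Jak1 (0.35) and Irf1 (0.07) were not called. Prdm1, which encodes a repressor of Ciita, was also higher in DN1 than in DN3 (0.75, limma adjusted p = 0.0161). Ciita itself differed between DN1 and DN3 by 0.0010, with a 95% interval from -0.49 to 0.49.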

How the data were processed

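The deposited table holds log2 RMA values that the authors computed in oligo, per the submitters' processing notes; versions, summary level and genome build are not given in the sources used here. It has 41345 probe sets on 18 arrays with 0 missing values, and these log2 values were used as deposited. Of the probe sets, 23521 carry 1 gene symbol, 1814 several and 16010 none. The last 2 kinds were left out, and the brightest single-symbol probe set by mean over the arrays stood for each of 22180 genes. Symbols come from the platform annotation, which can be old, and promoters and gene order from RefSeq tables on GRCm38.p6.

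Differences were tested with limma 3.58.1 in R 4.3.3 (lmFit and eBayes, two-sided), with Benjamini-Hochberg adjustment over all 22180 genes and a threshold of 0.05. The lymphoma mean averaged the 5 fraction arrays of each replicate number, giving 3 values against 3 LSK arrays, since the design names 3 lymphomas. Each fraction was set against LSK in a fit of those 6 arrays, and the 15 lymphoma arrays were fitted together for the F test and the 10 pairs. SE is limma's standard error. The number of arrays limits the precision. The code was tested on simulated data.

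All 9 genes are described. Other genes were named from lists of antigen loading, regulators, class I and cell markers, and likeness from the 5 highest correlations. The genes and lists were chosen with earlier results of these data known, and the antibody-secreting cell genes and the chromosomal window were added after values were seen. As alternatives, each array was left out, each fraction was dropped from the lymphoma mean, the replicate number was added as a block, all 18 arrays were fitted together, the prior was made robust and trended, probe sets of a gene were averaged, values were quantile normalized, and genes had to exceed the median of the array on at least 3 arrays. List genes without a single-symbol probe set, among them Cd74, H2-D1, H2-Ea-ps and Clec9a, were not analysed here.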

Additional observations from a re-analysis of the deposited data

Results flagged for a closer look

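Of the 9 members, 5 differed among the lymphoma fractions by limma's F test. The difference between the highest and the lowest fraction mean was 2.40 for H2-Ab1, 1.42 for H2-Oa, 1.36 for H2-Aa, 0.95 for H2-Eb1 and 0.67 for H2-DMa, all on the log2 scale. H2-Ab1, H2-Aa and H2-Eb1 were highest in DN1, H2-DMa was highest in DN2, and H2-Oa was lowest in DN1.

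A probe set that carries the symbols of both H2-Oa and BC051537, and which no test used, was higher in the lymphoma than in LSK. Its lowest lymphoma array was at 5.62 and its highest LSK array at 5.51.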

How the results depend on the processing

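The number of members called stayed within 1.5 times its reported value in all 8 comparisons and under every alternative run. With 9 members, the counts against LSK could not have risen beyond that bound. Averaging probe sets could not change the values of a member, since each has 1 single-symbol probe set. Against LSK it was 8 for the lymphoma mean (6 to 8 over the alternatives, 7 to 8 with 1 replicate left out), 6 for CLP (6 to 8, 5 to 7), 7 for DN1 (5 to 7, 5 to 6), 8 for DN2 (6 to 8, 7 to 8), 7 for DN3 (6 to 7, 7 in each case) and 8 for DN4 (7 to 9, 7 to 9). The F test called 5 members under every alternative and 5 to 6 with an array left out, and the pairs of fractions gave 24 calls (23 to 26, 20 to 27). The filter on low values left 7 members to test against LSK and 6 among the fractions, which bounds those counts. The single results below are the 54 tests against LSK, the 9 F tests and the 29 of 90 differences between fractions that at least 1 setting called. The other 61 differences were called under none and changed sign 55 times over all settings. Among the single results the direction turned for 2 uncalled ones, H2-Eb1 in DN1 against LSK, which with 1 replicate left out ran from -0.34 to 0.028 (above 0 without LSK replicate 1), and Ciita in DN2 against LSK, which ran from -0.27 to 0.0097 (above 0 without DN2 replicate 2), and the cause was not tested. Of the 92, 67 kept their direction and call under all settings run.

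Same-numbered samples of different fractions did not deviate together in every case: 21 of 30 correlations of their deviations were above 0.1, with a range from -0.193 to 0.346, so the numbers were not taken as pairs throughout. All 3 same-number correlations were above 0.1 for DN1 with DN3, DN1 with DN4, DN2 with DN3 and DN3 with DN4. Their mean was between 0.0889 and 0.186 for every pair of fractions except CLP with DN1 (-0.0838). Same-numbered arrays may thus share a lymphoma, and without the block the F test and the pairs treat them as independent. With the replicate number as a block, the counts of members called were 8, 7, 6, 8, 7 and 8 against LSK in the order above, 5 for the F test and 26 for the pairs. Of single results the block changed 4 calls, losing H2-DMb1 in DN1 against LSK (limma adjusted p = 0.0605) and adding H2-Ob in CLP against LSK (0.015) and H2-DMb2 between CLP and DN1 (0.0233) and between DN1 and DN4 (0.0323). Over all genes the block gave 6342 calls for the lymphoma mean in place of 6425, and 2036 for the F test in place of 1748. For CLP against LSK the count over all genes ran from 2559 without LSK replicate 1 to 6140 with all 18 arrays in 1 model, beside 3928, so the CLP background share moves with the fit. Values of H2-DMb1 in all groups, and of H2-Aa, H2-DMb2 and H2-Ob in most lymphoma fractions, lie at background, which limits how large a fall the arrays can show.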

Other observations

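H2-Eb2, a beta chain gene beside H2-Eb1 that is not among the 9, had a pattern across fractions unlike that of the I-A and I-E genes. It was at background in LSK (4.96, 4.74 and 4.89) and measured 5.68, 5.53 and 5.00 in DN1, 5.14, 5.79 and 5.44 in DN2, 6.36, 7.29 and 5.92 in CLP, 7.11, 7.15 and 6.90 in DN3 and 7.19, 6.94 and 6.71 in DN4. It was lower in DN1 than in DN3 by 1.65 (SE 0.274, limma adjusted p = 0.000694) and differed among the fractions by the F test (limma adjusted p = 0.000471). Its promoter was the only one outside the members, among the pathway genes listed with a promoter in the table, that held GCAAC followed by TGATTGG within 40 bases.

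Ctsb, the cathepsin B gene, was not lower in the lymphoma mean, unlike Ctsh, Ctsl and Ctss. It measured 10.72, 10.73 and 11.00 in DN1 and 10.23, 9.81 and 10.01 in LSK (log2 difference 0.80, limma adjusted p = 0.00386), and was higher in DN1 than in DN3 by 0.71 (limma adjusted p = 0.00641).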
